A study of Mus musculus with 20 samples.

Results

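The cysteine cathepsins of mouse were followed over PyMT mammary tumors and PyMT tumor cells that had or lacked cathepsin D (Ctsd). The 10 members, taken by name, were Ctsb, Ctsl, Ctsz, Ctsh, Ctss, Ctsk, Ctsc, Ctsf, Ctso and Ctsw, and all 10 were found among the 45706 genes of the count files. RNA sequencing covered 6 groups. Tumors came from 18-week-old C57BL/6N mice with the MMTV-PyMT oncogene: 4 were controls, labelled wild type, competent for CTSD and without cre, and 4 were MMTV-cre;Ctsd-/-, in which MMTV-driven cre removed floxed Ctsd from mammary epithelium while stromal cells kept it. Cells were spontaneously immortalized PyMT tumor cell lines, 1 from a Ctsd+/+ mouse and 1 from an MMTV-cre;Ctsd-/- mouse, held in medium with 1% FCS for 10 days (1% FCS) or for 12 weeks (1% FCS LT), each of these 4 groups having 3 replicates. Since each genotype of cells is 1 line, genotype and line cannot be told apart, and p-values in cells measure the spread between replicates of those lines. The question put to the data was whether other cathepsins are expressed at a different level where Ctsd is missing.

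Cysteine cathepsins are papain-like proteases that work mostly in acidic endosomes and lysosomes, with a cysteine in the active site, whereas Ctsd is an aspartic protease of the same compartment. They are made as inactive zymogens, sorted mainly through mannose 6-phosphate receptors, cut to their active form in the lysosome and held in check by cystatins and stefins. Ctsb, Ctsl, Ctsz, Ctsh, Ctsf and Ctso are found in many tissues. Ctss is known from antigen-presenting cells, where it processes the invariant chain of MHC class II, Ctsk from osteoclasts, where it cleaves collagen, Ctsc from leukocytes, where it activates granule serine proteases, and Ctsw from cytotoxic lymphocytes. In mammary tumors they are made by cancer cells and by infiltrating cells alike.

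Counts on genes totalled 49725437 to 64291587 per tumor and 33622831 to 40239762 per cell sample. Expression is given as CPM (counts scaled by library size) after TMM scaling, each material by itself. Ctsd was read first as a check of the labels. It had 1860.2, 2617, 1781 and 2532 CPM in control tumors against 797, 360.2, 1295 and 1233 CPM in MMTV-cre;Ctsd-/- tumors. The log2 FC in tumors was -1.25 ± 0.38 SE (95% confidence interval -2.10 to -0.41, edgeR adjusted p = 0.46 and unadjusted p = 0.0078). Ctsd+/+ cell samples had at least 1266 CPM and Ctsd-/- cell samples 114 to 192 CPM, so no library went against its label. The deletion removes a single exon, so counts over the gene remain in Ctsd-/- cells. The paper proposes that CTSD left in such tumors probably comes from stromal cells. The source of the Ctsd RNA left in tumors was not tested here. The gene Gm49369 lies on the same strand over 34.4% of the merged exons of Ctsd. Several libraries stood apart. Control tumor 4 and MMTV-cre;Ctsd-/- tumor 1 carried the highest skeletal muscle markers of their groups, with 966 and 237 CPM summed over 6 genes. Adipocyte markers summed to 548 to 5711 CPM over control tumors and to 3475 to 24039 CPM over MMTV-cre;Ctsd-/- tumors. The labels also carry LR numbers, whose meaning they do not state and which were taken here as library codes. Control and MMTV-cre;Ctsd-/- tumors carried different codes, so that code and genotype cannot be told apart there. Among cells, the 1% FCS Ctsd+/+ group differed most from the others: its epithelial markers (9 genes) summed to 1018 to 2151 CPM against 10006 to 12643 CPM in 1% FCS Ctsd-/- cells and 5844 to 6148 CPM in 1% FCS LT Ctsd+/+ cells, and its fibroblast markers (8 genes) to 921 to 2936 CPM against 8.34 to 33.0 and 3.22 to 7.86 CPM. The parts of these markers in the results below were not tested, except where a value is given.

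Start regions of the cathepsins were searched for short motifs. RefSeq start regions on GRCm38.p6, from 250 bases before to 50 after the start, were available here for 7 of the 10 members and for Ctsd. Motifs searched on both strands were the E-box CACGTG, the palindrome TCACGTGA and the related GTCACGTG, which lysosomal genes often carry and which transcription factors of the TFEB family bind, the M-box TCATGTGA, the PU.1 motif GAGGAAGT known from myeloid genes, the interferon-response core GAAANNGAA and the cAMP-response element TGACGTCA. GTCACGTG and TCACGTGA contain the E-box. Sequences of Ctsl, Ctsz and Ctso are shown because their genotype difference in cells changed with culture time, Ctss because it was high in tumors and near 0 in cells, and Ctsd as the deleted gene. Each runs 5′ to 3′ from 250 bases before to 30 after the start, and capitals mark the motifs.
Ctsl, chr13:64370491-64370770 (- strand): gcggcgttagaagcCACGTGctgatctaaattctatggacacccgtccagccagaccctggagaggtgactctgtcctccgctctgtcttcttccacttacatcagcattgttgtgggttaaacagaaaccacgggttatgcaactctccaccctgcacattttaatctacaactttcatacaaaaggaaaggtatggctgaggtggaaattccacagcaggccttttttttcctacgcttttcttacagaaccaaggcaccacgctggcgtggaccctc
Ctsz, chr2:174439010-174439289 (- strand): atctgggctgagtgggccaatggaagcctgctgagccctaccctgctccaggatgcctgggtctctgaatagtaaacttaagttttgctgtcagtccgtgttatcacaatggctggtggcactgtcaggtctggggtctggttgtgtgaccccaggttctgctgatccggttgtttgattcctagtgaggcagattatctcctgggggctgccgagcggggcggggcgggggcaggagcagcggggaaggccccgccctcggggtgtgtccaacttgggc
Ctso, chr3:81932351-81932630 (+ strand): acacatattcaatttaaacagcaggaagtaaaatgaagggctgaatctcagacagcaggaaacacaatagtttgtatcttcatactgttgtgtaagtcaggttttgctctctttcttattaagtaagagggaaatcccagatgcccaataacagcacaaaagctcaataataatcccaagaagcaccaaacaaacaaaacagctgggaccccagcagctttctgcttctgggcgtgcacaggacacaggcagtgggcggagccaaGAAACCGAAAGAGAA
Ctss, chr3:95526536-95526815 (+ strand): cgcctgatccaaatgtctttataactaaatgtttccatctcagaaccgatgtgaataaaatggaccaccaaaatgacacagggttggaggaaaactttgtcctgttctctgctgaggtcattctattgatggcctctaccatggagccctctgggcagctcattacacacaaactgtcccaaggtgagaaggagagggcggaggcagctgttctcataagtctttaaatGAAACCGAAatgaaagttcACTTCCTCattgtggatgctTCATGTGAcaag
Ctsd, chr7:142387798-142388077 (- strand): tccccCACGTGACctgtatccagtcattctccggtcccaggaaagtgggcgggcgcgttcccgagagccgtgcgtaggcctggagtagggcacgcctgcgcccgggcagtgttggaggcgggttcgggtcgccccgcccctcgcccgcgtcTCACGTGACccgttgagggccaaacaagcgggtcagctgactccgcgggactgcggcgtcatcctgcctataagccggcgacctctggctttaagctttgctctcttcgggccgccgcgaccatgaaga

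The E-box lay once in the Ctsl region, with its first base 236 bases before the start, once in that of Ctsf at 79 bases before the start, and at 2 places in that of Ctsd, where both were part of GTCACGTG and the one nearer to the start also of TCACGTGA. Of 32851 start regions in the table, 7.15% held the E-box, 2.25% GTCACGTG and 0.974% TCACGTGA. The PU.1 motif was found in Ctss and Ctsc and in 3.20% of all regions, the M-box in Ctss and in 0.986%, and the interferon-response core in Ctss and, at 2 overlapping places, in Ctso and in 8.56%. Ctsz and Ctsk held none of the motifs, and no member held the cAMP-response element, which 1.79% of regions did. These are matches of letters only, and no binding was measured.

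Levels of different cathepsins were set side by side per length, as counts per kilobase of merged exons scaled to the same total in each sample (TPM), without a test. In control tumors Ctsb led with 664 ± 165 TPM (mean ± SD, n = 4), followed by Ctsz with 556 ± 219.8, Ctss with 548 ± 179 and Ctsh with 389 ± 64.2 TPM. Each of these differed from its neighbour in the order by less than the sum of their SDs. Ctsl had 135 ± 20.4, Ctsk 85.3 ± 57.0 and Ctsc 79.9 ± 30.1 TPM, whereas Ctsf, Ctso and Ctsw stayed at 22.7 ± 6.34, 12.1 ± 1.94 and 9.39 ± 2.17 TPM. The order depended on the length used, because the merged exons of Ctsl (6489 bases) and Ctsh (4499 bases) include models much longer than the principal transcripts of 1971 and 1617 bases. Per length of the principal transcript, an alternative chosen after seeing the data, Ctsh came first with 691 ± 106 TPM, ahead of Ctsb with 543 ± 142, and Ctsl rose to 286 ± 46.5 TPM.

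The cell lines had another make-up of cathepsins than the tumors. In 1% FCS Ctsd-/- cells Ctsl made up 65.0% of the summed TPM of the 10 genes and in 1% FCS LT Ctsd-/- cells 63.3%, compared with 5.51% in control tumors. In 1% FCS Ctsd+/+ cells Ctsz came first with 38.5%, Ctsb had 27.7% and Ctsl 22.6%, but per length of the principal transcript Ctsl came first in this group too, with 42.3%. In 1% FCS LT Ctsd+/+ cells Ctsl took 56.4% and Ctsz 5.29%. Ctss, which held 21.7% in control tumors, was at 0 counts in 10 of the 12 cell samples and at 1 and 3 counts in the other two. Ctsk had 3 to 17 counts in every cell sample and at most 0.445 CPM. Tumors and cells were counted in different forms (regardless of strand in tumors, on the opposite strand in cells), so these shares are not a test of tumor against cells.

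**Figure D1:**
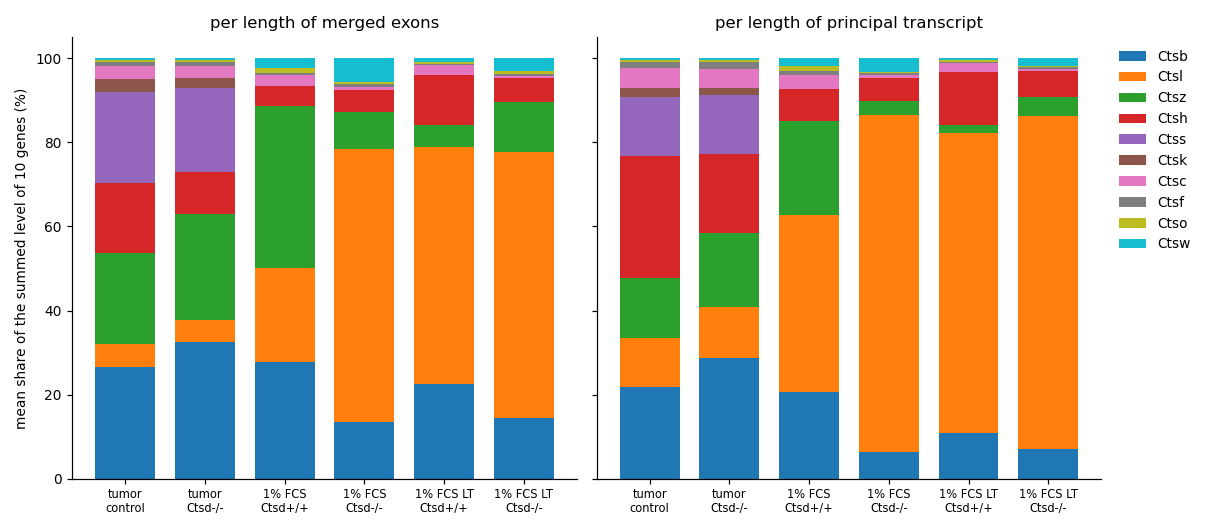
Mean share of each cysteine cathepsin in the summed length-scaled level (TPM, in %) of the 10 genes, for 2 tumor groups (n = 4) and 4 cell groups (n = 3), with counts divided by merged exons on the left and by the principal transcript on the right. Ctsl takes 65.0% of the sum in 1% FCS Ctsd-/- cells by merged exons and 80.1% by principal transcripts, whereas tumors divide the sum mainly among Ctsb, Ctsz, Ctss and Ctsh.

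The summed TPM of the 10 genes was 2501 ± 593 in control and 2824 ± 255 in MMTV-cre;Ctsd-/- tumors (mean ± SD, n = 4), 1220.0 ± 114 and 1433 ± 133 in 1% FCS Ctsd+/+ and Ctsd-/- cells, and 1094 ± 149.9 and 1521 ± 249.9 in 1% FCS LT Ctsd+/+ and Ctsd-/- cells (n = 3). The SDs of control and MMTV-cre;Ctsd-/- tumors overlapped. Those of the genotypes in 1% FCS cells did as well, whereas those in 1% FCS LT cells did not. Single samples went the other way in cells. In 1% FCS they ran from 1089 to 1296 in Ctsd+/+ and from 1347.5 to 1586.5 in Ctsd-/- cells, without overlap. In 1% FCS LT they ran from 996 to 1267 in Ctsd+/+ and from 1241 to 1721 in Ctsd-/- cells, with overlap. Per length of the principal transcript, which raises the weight of Ctsl, the sum was 1419 ± 63.0 in 1% FCS Ctsd+/+ and 2548 ± 183 in 1% FCS Ctsd-/- cells. By the same length it was 1933 ± 274 in 1% FCS LT Ctsd+/+ and 2691 ± 546 in 1% FCS LT Ctsd-/- cells, with overlapping SDs. The Ctsd level itself was 4472 ± 2462 TPM in 1% FCS Ctsd+/+ and 247 ± 63.2 TPM in 1% FCS Ctsd-/- cells, by merged exons. No test was made on these sums.

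In tumors, no cysteine cathepsin passed the test between MMTV-cre;Ctsd-/- and controls. All 10 passed the filter on low counts, and edgeR called 0 of 10 at an adjusted p under 0.05, where 0.00537% of all 18617 genes were called, and 0 of 10 in either direction at an unadjusted p under 0.1, where 8.44% of all genes were called higher and 8.27% lower. At an unadjusted p under 0.05 the count was also 0, and DESeq2 and limma-voom gave 0 at an adjusted p under 0.05 as well, although at an unadjusted p under 0.1 each of them called Ctsh lower. Of the members, 4 had a log2 FC above 0 and 6 below, with a median of -0.03 against 0.0007 over all genes tested. CPM ranges of the genotypes overlapped for each of the 10.

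Among the broadly expressed endopeptidases, Ctsb (chr14:63122462-63145923), which also cleaves dipeptides from protein ends, had 1513, 2003, 1542 and 1898 CPM in control tumors and 1980.5, 1698, 2409.6 and 2418 CPM in MMTV-cre;Ctsd-/- tumors. The highest 2 tumors were both MMTV-cre;Ctsd-/-, yet the lowest of that group lay inside the control range (log2 FC = 0.29 ± 0.23 SE, 95% confidence interval -0.22 to 0.80, adjusted p = 0.69). Ctsl (chr13:64359337-64370890), a strong endopeptidase of lysosomes, had 353, 367, 382 and 433 CPM in controls and 463, 238, 415 and 381 CPM in MMTV-cre;Ctsd-/- tumors, with both the lowest and the highest tumor in the latter group (log2 FC = -0.04 ± 0.23 SE, 95% confidence interval -0.56 to 0.48, adjusted p = 0.97). Upper limits of these intervals correspond to a rise of 1.4-fold for Ctsl and of 1.74-fold for Ctsb. Ctsl lies beside an antisense gene and a processed pseudogene, which overlap 26.9% of its merged exons, 12.8% of those of Ctsb are overlapped by Fdft1 on the opposite strand, and tumor counts did not use strand.

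Exopeptidases showed the same lack of separation. Ctsz (chr2:174427493-174439039), a carboxypeptidase, had 381, 407, 258 and 298 CPM in controls and 347, 409, 397 and 415 CPM in MMTV-cre;Ctsd-/- tumors (log2 FC = 0.22 ± 0.21 SE, 95% confidence interval -0.24 to 0.69, adjusted p = 0.73). Ctsh (chr9:90054152-90076089), an aminopeptidase, had the widest spread, with 504, 608, 876 and 1246 CPM in controls and 908, 405, 399.9 and 302 CPM in MMTV-cre;Ctsd-/- tumors (log2 FC = -0.68 ± 0.40 SE, 95% confidence interval -1.56 to 0.20, adjusted p = 0.61, unadjusted p = 0.12). The highest Ctsh value of each genotype was in the tumor with the highest skeletal muscle markers of that group. Without both of these tumors, an alternative chosen after seeing the data, the log2 FC of Ctsh was -0.85 with an unadjusted p = 0.013 and an adjusted p = 0.37, by edgeR. Leaving out 1 tumor at a time gave a log2 FC of Ctsh from -1.14, without MMTV-cre;Ctsd-/- tumor 1 (unadjusted p = 0.01, adjusted p = 0.31), to -0.39, without control tumor 4 (unadjusted p = 0.34). Ctsc (chr7:88278085-88310888) had 212, 239, 149.7 and 182 CPM in controls and 199, 205, 140.4 and 166 CPM in MMTV-cre;Ctsd-/- tumors (log2 FC = -0.14, interval -0.62 to 0.34).

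Members known from immune cells and osteoclasts did not separate the genotypes either. Ctss (chr3:95526786-95556403) had 241, 410.5, 310.4 and 322 CPM in controls and 482, 278, 251 and 199.7 CPM in MMTV-cre;Ctsd-/- tumors (log2 FC = -0.08, interval -0.74 to 0.57). Its neighbour Ctsk (chr3:95499256-95509362), on the same chromosome, had 46.1, 93.7, 23.2 and 53.2 CPM in controls and 48.0, 39.7, 47.5 and 33.7 CPM in MMTV-cre;Ctsd-/- tumors, and the highest and the lowest tumor were both controls (log2 FC = -0.36, interval -1.15 to 0.43, and -0.61 with an unadjusted p = 0.06 by edgeR without control tumor 3). Ctsw (chr19:5465043-5468507) was the least abundant, at 6.05 to 9.23 CPM in controls and 6.32 to 9.10 CPM in MMTV-cre;Ctsd-/- tumors (log2 FC = 0.02, interval -0.51 to 0.55). Ctsf (chr19:4855130-4860918) and Ctso (chr3:81932601-81956725), both of low abundance, had log2 FC of -0.01 (interval -0.46 to 0.43) and 0.11 (interval -0.38 to 0.61). No interval among the 10 reached a rise of 1 on the log2 scale.

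**Figure D2:**
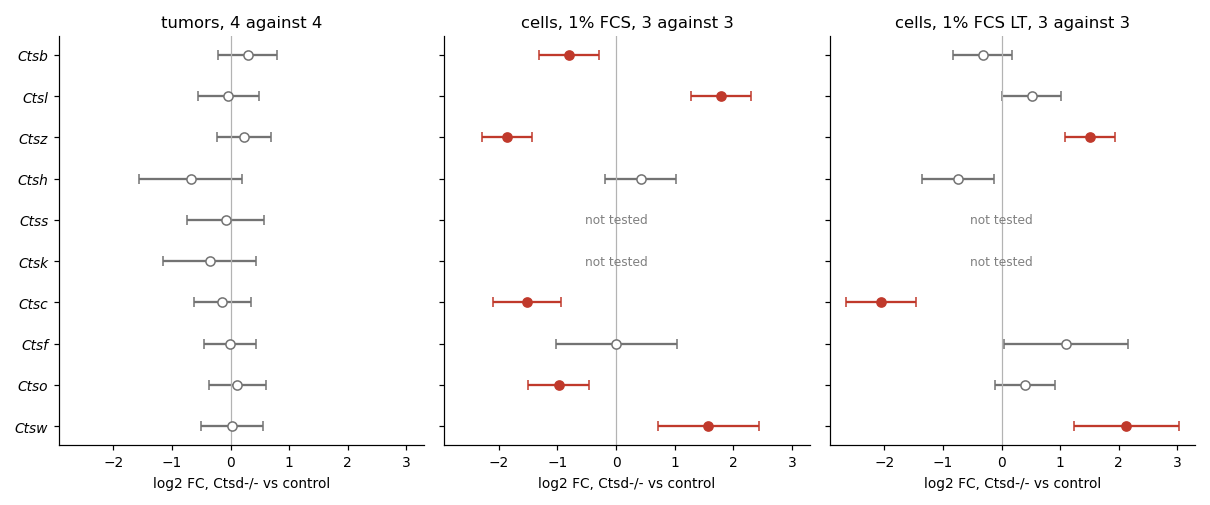
Log2 FC of Ctsd-/- against control for the 10 cysteine cathepsins in tumors (4 against 4), in 1% FCS cells and in 1% FCS LT cells (3 against 3 each), as points with 95% confidence intervals from edgeR. Filled points passed the threshold (unadjusted p under 0.1 in tumors, adjusted p under 0.05 in cells), and Ctss and Ctsk had too few counts in cells. No point is filled in tumors, 6 are filled in 1% FCS and 3 in 1% FCS LT.

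Tumor RNA is a mixture of cells, so each member was set beside marker genes of cell types over the 8 tumors. In such bulk samples fewer cells of a type and less RNA per cell cannot be told apart. Ctss went with the mean log2 CPM of 12 macrophage markers (Pearson r = 0.87, exact permutation p = 0.0067, adjusted over the 10 members 0.067, Spearman rho = 0.76, exact permutation p = 0.037, adjusted 0.29), and r was 0.62 without the 2 tumors farthest from the median marker score. No member passed adjustment with this list, whose summed level was 1379 to 2981 CPM in controls and 1336 to 2632 CPM in MMTV-cre;Ctsd-/- tumors. Ctsk had r = 0.70 with these markers (exact permutation p = 0.054, rho = 0.71, exact permutation p = 0.058), which fell to 0.19 without 2 tumors and so rested on them.

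Ctsb followed the 8 adipocyte markers more closely than any member followed the macrophage markers (r = 0.94, exact permutation p = 0.002, adjusted over the 10 members 0.020 and over all 40 pairs of a member with a list 0.081). Spearman's rho was 0.83 (exact permutation p = 0.015, adjusted over the 10 members 0.15), and r was 0.91 without the 2 tumors farthest from the median. The permutations ran over all 8 tumors regardless of genotype and library code, and both Ctsb and the adipocyte markers were higher on average in MMTV-cre;Ctsd-/- tumors. With 4 tumors in each genotype, too few to report a correlation, none is given within either. With the adipocyte markers as a covariate the log2 FC of Ctsb between genotypes was -0.15, against 0.29 without, and neither passed a threshold. With the 8 fibroblast markers Ctsz had r = 0.87 (exact permutation p = 0.0059, adjusted over the 10 members 0.059, rho = 0.55, exact permutation p = 0.17), falling to 0.32 without 2 control tumors. No member passed adjustment with the 11 T and NK cell markers.

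**Figure D3:**
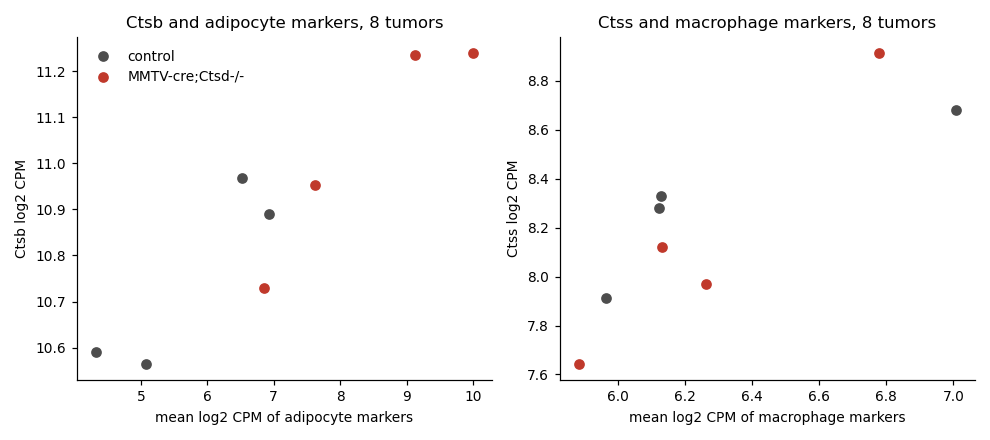
Log2 CPM of Ctsb against the mean log2 CPM of 8 adipocyte markers on the left, and of Ctss against that of 12 macrophage markers on the right, with 1 point for each of the 8 tumors, controls in grey and MMTV-cre;Ctsd-/- in red. Ctsb rises with the adipocyte markers (r = 0.94), and MMTV-cre;Ctsd-/- tumors hold the highest values of both. Ctss rises with the macrophage markers (r = 0.87) with both genotypes mixed.

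Cells gave a different picture from tumors. In 1% FCS, Ctsd-/- cells had more Ctsl and Ctsw and less Ctsb, Ctsz, Ctsc and Ctso than Ctsd+/+ cells, whereas Ctsh and Ctsf did not pass the test. Of the 8 members with enough counts, 2 were called higher and 4 lower by edgeR at an adjusted p under 0.05, where 23.5% of all 15178 genes tested were called higher and 25.1% lower. With so large a share of all genes called, having 6 of 8 called says little about the members as a group. The median log2 FC of the 8 was -0.40 against 0.0002 over all genes, and 6 of the 8 had groups that did not overlap, as 55.2% of all genes did.

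Ctsl had the largest rise in level. It was 328, 509 and 559 CPM in the 3 Ctsd+/+ samples and 1604, 1586 and 1649.8 CPM in the 3 Ctsd-/- samples, which lay close together and well above every Ctsd+/+ sample (log2 FC = 1.79 ± 0.24, adjusted p = 7.7e-05, a 3.47-fold difference). Ctsw was 5.85, 22.6 and 13.1 CPM in Ctsd+/+ and 36.4, 50.7 and 36.6 CPM in Ctsd-/- cells, again without overlap (log2 FC = 1.57 ± 0.39, adjusted p = 0.0062). The Ctsd+/+ replicates of Ctsw were widely spread, and the Ctsd-/- ones were all above the highest of them.

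Ctsz, Ctsc, Ctso and Ctsb were lower in Ctsd-/- cells. Ctsz was 187, 202 and 152 CPM in Ctsd+/+ and 58.4, 49.0 and 41.7 CPM in Ctsd-/- cells (log2 FC = -1.86 ± 0.19, adjusted p = 1.4e-05), with a wide gap between the genotypes. Ctsc, which activates other proteases by removing dipeptides, was 39.9, 72.1 and 34.4 CPM in Ctsd+/+ and 21.4, 15.1 and 14.5 CPM in Ctsd-/- cells (log2 FC = -1.52 ± 0.26, adjusted p = 5.9e-04). Ctso was 23.5, 21.3 and 14.3 CPM in Ctsd+/+ and 13.8, 7.89 and 8.34 CPM in Ctsd-/- cells (log2 FC = -0.98 ± 0.24, adjusted p = 0.005). Ctsb was 671, 556 and 407 CPM in Ctsd+/+ and 398, 293 and 246 CPM in Ctsd-/- cells, where the highest Ctsd-/- sample was just below the lowest Ctsd+/+ sample (log2 FC = -0.80 ± 0.23, adjusted p = 0.014). The call of Ctsb was lost without Ctsd+/+ replicate 1 (adjusted p = 0.054) and without Ctsd-/- replicate 3 (adjusted p = 0.061, both by edgeR).

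Ctsh was 103, 60.6 and 37.3 CPM in Ctsd+/+ and 102, 82.4 and 83.5 CPM in Ctsd-/- cells, with overlapping groups (log2 FC = 0.42, 95% confidence interval -0.19 to 1.03, adjusted p = 0.24). Within the library code that all 4 groups shared, which leaves out replicate 1 of both genotypes, the log2 FC of Ctsh was 0.76 (edgeR adjusted p = 0.021). Ctsf was 13.9, 12.3 and 6.62 CPM in Ctsd+/+ and 21.5, 4.68 and 6.71 CPM in Ctsd-/- cells. Its Ctsd-/- replicate 1 was far above the other two, and without it the log2 FC moved from 0.01 to -0.94 (edgeR adjusted p = 0.038). Neither Ctsh nor Ctsf passed the test with all samples in.

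**Figure D4:**
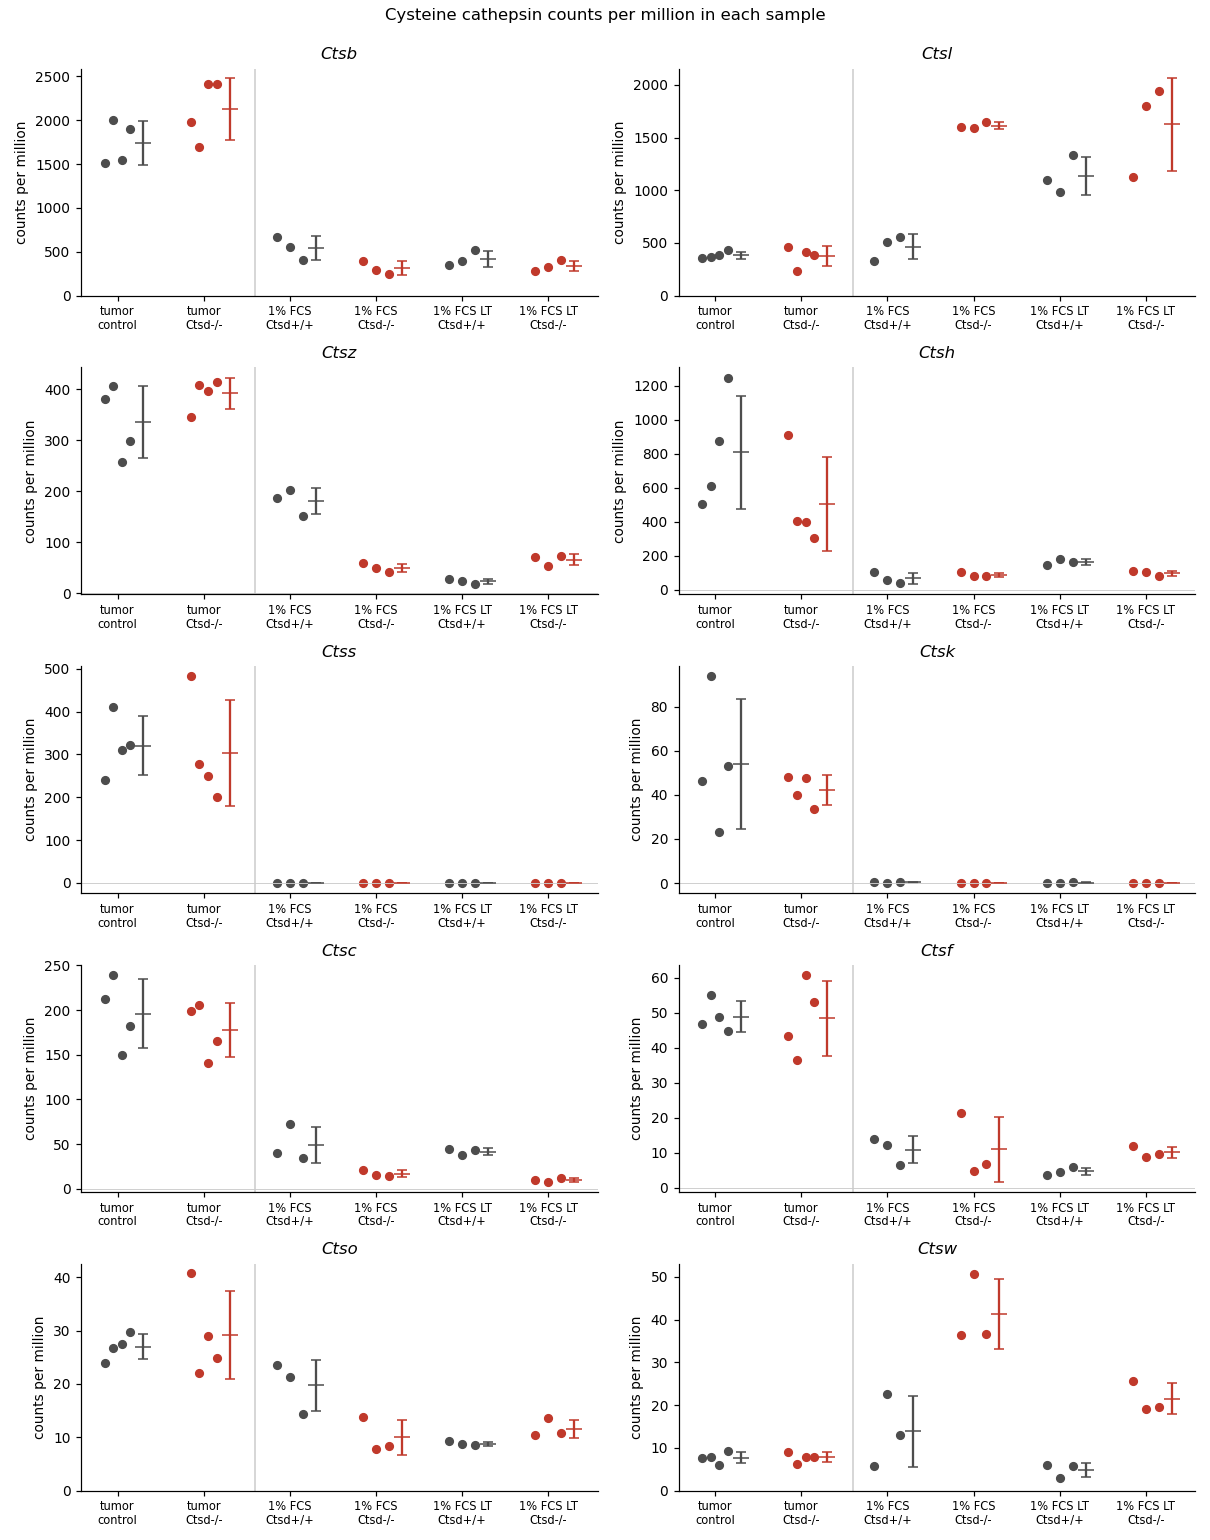
CPM of the 10 cysteine cathepsins in each of the 20 samples, 1 panel per gene, with controls or Ctsd+/+ in grey and Ctsd-/- in red, and the mean ± SD beside the points (n = 4 in tumors, n = 3 in cells). The grey line parts tumors from cells, which were scaled separately. Tumor genotypes overlap in every panel. Ctsl, Ctsz, Ctsw and Ctsc part the genotypes in 1% FCS cells, and Ctso and Ctsb do so narrowly. Ctss and Ctsk lie at the bottom of the axis in all cell groups.

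After 12 weeks, in 1% FCS LT, 3 of the 6 members called in 1% FCS were called, Ctsw and Ctsc in the same direction and Ctsz in the opposite one. Ctsz and Ctsw were called higher in Ctsd-/- cells and Ctsc lower, that is 2 of 8 higher and 1 of 8 lower, where 20.5% of all genes were called higher and 19.1% lower. The median log2 FC of the 8 was 0.46 against 0.01 over all genes, and 6 of the 8 had groups without overlap against 54.2% of all genes. Ctsz was 28.3, 23.1 and 17.8 CPM in Ctsd+/+ and 70.03, 53.4 and 73.6 CPM in Ctsd-/- cells (log2 FC = 1.51 ± 0.19, adjusted p = 9.7e-05). Ctsw was 5.999, 3.06 and 5.68 CPM in Ctsd+/+ and 25.7, 19.2 and 19.6 CPM in Ctsd-/- cells (log2 FC = 2.13 ± 0.41, adjusted p = 0.0015), and Ctsc was 44.0, 37.4 and 43.8 CPM in Ctsd+/+ and 9.96, 8.14 and 12.0 CPM in Ctsd-/- cells (log2 FC = -2.06 ± 0.27, adjusted p = 1.1e-04). For all of these the groups were far apart.

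Ctsl no longer passed the test in 1% FCS LT. It was 1096, 979 and 1336 CPM in Ctsd+/+ and 1124, 1803 and 1946 CPM in Ctsd-/- cells, so that the lowest Ctsd-/- sample lay within the Ctsd+/+ range (log2 FC = 0.51 ± 0.23, adjusted p = 0.096, 95% confidence interval 0.01 to 1.02). Without that Ctsd-/- replicate 1 the log2 FC was 0.73 (edgeR adjusted p = 0.021). Ctsh was 143, 183 and 164 CPM in Ctsd+/+ and 108, 104 and 80.6 CPM in Ctsd-/- cells, with all Ctsd-/- samples below, but just missed the threshold (log2 FC = -0.74 ± 0.28, adjusted p = 0.052), and 7 of its 16 alternatives called it lower. Ctsf was 3.70, 4.61 and 5.86 CPM in Ctsd+/+ and 11.9, 8.86 and 9.60 CPM in Ctsd-/- cells, also without overlap (log2 FC = 1.10, adjusted p = 0.092), and 4 of its 16 alternatives called it higher. Ctsb (log2 FC = -0.32, 95% confidence interval -0.83 to 0.18) and Ctso (log2 FC = 0.40, 95% confidence interval -0.12 to 0.91) did not pass.

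The difference between genotypes changed with culture time for 4 members by the interaction test, in which 16.1% of all genes were called higher and 14.1% lower. Ctsz and Ctso were called higher, meaning that Ctsd-/- minus Ctsd+/+ was larger in 1% FCS LT than in 1% FCS, and Ctsl and Ctsh lower. The interaction log2 FC was 3.37 ± 0.27 for Ctsz (adjusted p = 7.1e-06), 1.38 ± 0.33 for Ctso (adjusted p = 0.009), -1.28 ± 0.32 for Ctsl (adjusted p = 0.011) and -1.16 ± 0.39 for Ctsh (adjusted p = 0.044). The call of Ctsh was lost in 10 of its 21 alternatives, all of which left out 1 sample, with adjusted p from 0.053 to 0.093 by edgeR. The interaction of Ctsw was 0.55 (95% confidence interval -0.65 to 1.76, adjusted p = 0.49) and that of Ctsc -0.54 (interval -1.34 to 0.26, adjusted p = 0.3). Both values moved most with 1% FCS Ctsd+/+ replicate 2, without which the interaction of Ctsc was -0.94 (edgeR adjusted p = 0.025), a call, and that of Ctsw was near 0 (edgeR adjusted p above 0.99). That of Ctsf was 1.09 ± 0.67 (adjusted p = 0.25), and 3 of its 21 alternatives called it higher, among them leaving out 1% FCS Ctsd-/- replicate 1 (log2 FC = 2.04, edgeR adjusted p = 0.0062).

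Calls between culture times were made in the Ctsd+/+ line. Library code went in part with culture time. Replicate 1 of both genotypes in 1% FCS had a code absent from 1% FCS LT. Replicate 3 of both genotypes in 1% FCS LT had a code absent from 1% FCS. Code and culture time can therefore not be fully told apart in either line or in the interaction. In Ctsd+/+ cells, 1% FCS LT against 1% FCS called 2 of 8 members higher and 3 lower, where 23.0% of all genes were called higher and 23.4% lower. Ctsl rose from 465 ± 121 to 1137 ± 182 CPM (mean ± SD, n = 3, log2 FC = 1.29 ± 0.23, adjusted p = 8.2e-04) and Ctsh from 66.9 ± 33.1 to 163 ± 19.9 CPM (log2 FC = 1.29 ± 0.28, adjusted p = 0.0029). Ctsz fell from 180.1 ± 25.5 to 23.1 ± 5.23 CPM (log2 FC = -2.96 ± 0.20, adjusted p = 7.9e-07), Ctso from 19.7 ± 4.82 to 8.81 ± 0.378 CPM (log2 FC = -1.16 ± 0.24, adjusted p = 0.0019) and Ctsw from 13.9 ± 8.40 to 4.91 ± 1.61 CPM (log2 FC = -1.49 ± 0.40, adjusted p = 0.0097). Ctsf had 10.9 ± 3.81 CPM in 1% FCS and 4.72 ± 1.08 CPM in 1% FCS LT, without overlap, and missed the threshold (log2 FC = -1.21 ± 0.48, adjusted p = 0.059), but 5 of its 16 alternatives called it lower, with DESeq2 among them (adjusted p = 0.021). The Ctsw call was lost without 1% FCS Ctsd+/+ replicate 2 (edgeR adjusted p = 0.053).

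In Ctsd-/- cells, edgeR called 0 of 8 members between the same culture times, where 1.57% of all genes were called higher and 0.810% lower, and DESeq2 and limma-voom also called 0. At an unadjusted p under 0.05 there were 2, Ctsc with a log2 FC of -0.76 ± 0.26 (adjusted p = 0.15) and Ctsw with -0.94 ± 0.39 (adjusted p = 0.23). Ctsz had 49.7 ± 8.35 CPM in 1% FCS and 65.7 ± 10.8 CPM in 1% FCS LT (log2 FC = 0.40, interval -0.01 to 0.81), and Ctsl 1613 ± 32.9 and 1624 ± 439 CPM (log2 FC = 0.01, interval -0.49 to 0.51). The comparisons of genotypes and of culture times share samples. As given above, the 1% FCS Ctsd+/+ samples, which enter 3 of the 5 contrasts, also had the lowest epithelial and the highest fibroblast markers of the 4 cell groups, and the part of that state in these calls was not tested.

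**Figure D5:**
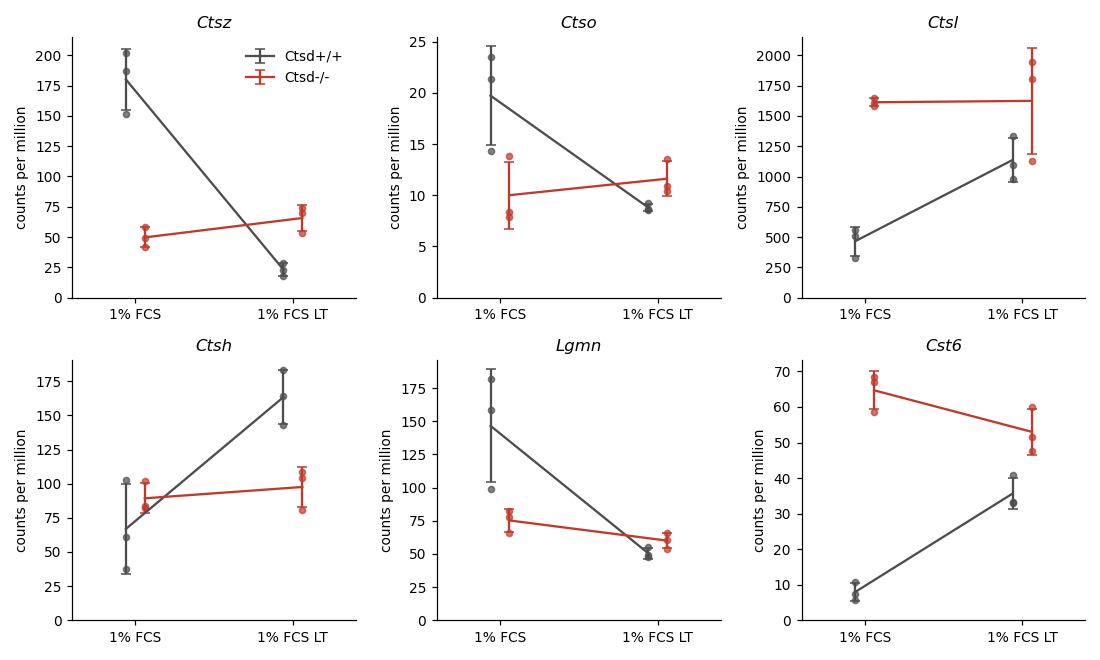
CPM of the 4 members whose genotype difference changed with culture time (Ctsz, Ctso, Ctsl, Ctsh), of the processing enzyme Lgmn and of the inhibitor Cst6 in Ctsd+/+ (grey) and Ctsd-/- (red) cells after 10 days (1% FCS) and 12 weeks (1% FCS LT). Points are samples, lines join the means, and bars are SD (n = 3). The grey lines are steeper than the red ones in every panel, and the lines cross for Ctsz, Ctso, Ctsh and Lgmn.

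Of the members known from blood and bone cells, Ctsc and Ctsw were expressed in every cell sample, Ctsc at 8.14 to 72.1 CPM. Ctsw had 3.06 to 50.7 CPM over the 12 cell samples, from at least 115 counts, although all 11 T and NK cell markers had at most 3 counts in every cell sample, with a summed level of at most 0.127 CPM. In 1% FCS Ctsd-/- cells every one of these markers was at 0. In tumors, where the 11 markers summed to 39.2 to 47.3 CPM in controls, Ctsw had at most 9.23 CPM. Tumors were scaled apart from cells, and the levels of both were not compared by a test. Its exons share 9 bases with the opposite-strand gene Fibp, and cell counts were specific to strand.

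Beside Ctss and Ctsk, which were near 0 in cells, some markers of macrophages and osteoclasts were at or near 0 and others were not. The macrophage markers C1qa, C1qb, C1qc, Fcgr1, Aif1 and Mpeg1 had at most 3 counts in all cell groups, and the summed level of the list was 19.0 to 27.9 CPM in 1% FCS Ctsd+/+, 33.4 to 49.2 CPM in 1% FCS Ctsd-/-, 75.8 to 94.7 CPM in 1% FCS LT Ctsd+/+ and 32.1 to 50.9 CPM in 1% FCS LT Ctsd-/- cells. The osteoclast markers Dcstamp, Ocstamp and Calcr were also at most at 3 counts. Other genes of these lists were higher. Csf1r had a mean of 55.2 CPM in 1% FCS LT Ctsd+/+ cells, against 66.0 CPM in control tumors, and 5.17 to 6.39 CPM in the other cell groups. Group means over cells were 13.7 to 27.0 CPM for Cd14, 2.83 to 12.3 CPM for Cd68, 0.804 to 16.9 CPM for Acp5, 0.0807 to 11.6 CPM for Mmp9 and 20.5 to 31.5 CPM for Nfatc1, which had 10.5 CPM in control tumors. Tumors and cells were scaled separately and counted in different forms, so the tumor values of Csf1r and Nfatc1 are no test against cells.

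Other genes of the same pathway were read from lists chosen with earlier results of these data known. Lgmn, the asparaginyl protease that cuts cysteine cathepsins to their double-chain form, was 182, 159 and 99.1 CPM in 1% FCS Ctsd+/+ and 82.7, 77.5 and 65.4 CPM in 1% FCS Ctsd-/- cells (log2 FC = -0.96 ± 0.19, adjusted p = 0.0013). In 1% FCS LT it was 55.3, 47.6 and 49.0 CPM in Ctsd+/+ and 53.9, 65.5 and 60.6 CPM in Ctsd-/- cells, which did not pass (log2 FC = 0.25 ± 0.19, adjusted p = 0.33), and its interaction was 1.21 ± 0.27 (adjusted p = 0.0051). In tumors its log2 FC was 0.01 (adjusted p = 0.99).

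Of the 7 inhibitors in the list, 3 could be tested in cells, and Cst6 and Cstb were called higher in 1% FCS Ctsd-/- cells. There 23.5% of all genes tested were called higher, and 20.5% in 1% FCS LT. With so few inhibitors tested, the counts say little about the list. Cst6, the secreted cystatin M, which inhibits Ctsl and legumain among others, was 7.26, 5.74 and 10.8 CPM in Ctsd+/+ and 58.6, 68.4 and 67.1 CPM in Ctsd-/- cells (log2 FC = 3.02 ± 0.21, adjusted p = 6.8e-07). In 1% FCS LT the difference was smaller, with 33.2, 33.0 and 40.7 and 51.5, 47.6 and 60.1 CPM (log2 FC = 0.57 ± 0.19, adjusted p = 0.033, interaction -2.45 ± 0.28, adjusted p = 6.5e-05). Cstb, the cytosolic stefin B, was 66.9, 98.4 and 94.2 and 114, 129 and 114 CPM in 1% FCS (log2 FC = 0.46 ± 0.16, adjusted p = 0.03) and did not pass in 1% FCS LT (log2 FC = -0.29, adjusted p = 0.17). In tumors 4 inhibitors could be tested and 2, Cst3 and Cstb, had a lower level at an unadjusted p under 0.1 but no adjusted p under 0.05 (log2 FC = -0.64 and -0.78, adjusted p = 0.55 and adjusted p = 0.57), with overlapping groups. At that unadjusted threshold 8.27% of all genes were lower.

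The lists that follow are short, and many of all genes tested were called too. In 1% FCS 23.5% were called higher and 25.1% lower, and in 1% FCS LT 20.5% and 19.1%. In tumors 8.44% were higher and 8.27% lower at an unadjusted p under 0.1. Among the 6 genes of mannose 6-phosphate sorting, 0 were called in 1% FCS. In 1% FCS LT the receptor Igf2r was called higher in Ctsd-/- cells (log2 FC = 0.48 ± 0.17, adjusted p = 0.041) and the sorting receptor Sort1 lower (log2 FC = -0.91 ± 0.29, adjusted p = 0.024). In tumors Sort1 was higher at an unadjusted p = 0.045 (log2 FC = 0.74, adjusted p = 0.55), with overlapping groups. Of the regulators Tfeb, Tfe3 and Mitf, which drive lysosomal genes, 0 were called in 1% FCS. Tfe3 was called lower in 1% FCS LT Ctsd-/- cells, with 118, 127 and 123 CPM in Ctsd+/+ and 82.4, 84.1 and 88.5 CPM in Ctsd-/- cells (log2 FC = -0.53 ± 0.09, adjusted p = 6.6e-04), after it had gone up over culture time in the Ctsd+/+ line (log2 FC = 0.66 ± 0.09, adjusted p = 1.1e-04), as had Mitf (log2 FC = 1.07 ± 0.22, adjusted p = 0.0018). In tumors 1 of the 3, Mitf, passed an unadjusted p under 0.1 (log2 FC = 0.70, adjusted p = 0.59). Of the other cathepsins, 2 could be tested in cells, where Ctsd was called lower in both genotype comparisons and Ctsa, a serine carboxypeptidase, was not called (log2 FC = -0.45 in 1% FCS and 0.16 in 1% FCS LT, adjusted p = 0.13 and adjusted p = 0.61). Cst3, Cstb, Sort1, Mitf and Ctsr in tumors are named because few genes of their lists passed, and were chosen after their values were seen.

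The placental cysteine cathepsins, a cluster found in rodents, stayed near 0 in cells, whereas single tumors had more of some of them. Of 9 genes, 0 passed the filter on low counts in cells and 2, Ctsj and Ctsr, did in tumors. Ctsj had 0.271, 1.19, 0.414 and 0.507 CPM in controls and 1.25, 0.200, 0.0150 and 5.08 CPM in MMTV-cre;Ctsd-/- tumors, and Ctsr 0, 0.401, 0.0829 and 0.710 and 4.72, 0.0307, 0.629 and 1.91 CPM. Both were widely spread among MMTV-cre;Ctsd-/- tumors and overlapped with controls, and Ctsr reached an unadjusted p = 0.072 only (adjusted p = 0.58). Ctsll3, which did not pass the filter, had 1.38 CPM in MMTV-cre;Ctsd-/- tumor 2 and at most 0.0300 CPM in the other tumors.

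Among pairs of members, the Pearson r of log2 CPM farthest from 0 over the 12 cell samples was that of Ctsz and Ctso (r = 0.85), followed by Ctsz and Ctsh (r = -0.76). Over the 8 tumors it was that of Ctsz and Ctsh (r = -0.80), followed by Ctsl and Ctso (r = 0.78). Such correlations are descriptions over samples that share groups and libraries. The genes most like Ctsl in cells were Ppip5k2 (r = 0.98), Stau2 (r = 0.98), Cldn4 (r = 0.98), 2610002M06Rik (r = 0.97) and Uhmk1 (r = 0.97), those most like Ctsz ENSMUSG00000104475 (r = 0.98), St6galnac4 (r = 0.98), Rmdn2 (r = 0.97), Med1 (r = 0.97) and Bdnf (r = 0.96) and those most like Ctsw Nuak1 (r = 0.97), Sema4c (r = 0.97), Ssbp1 (r = 0.96), Dnttip2 (r = 0.95) and Tmsb10 (r = 0.95). Ctso was most like Sulf2 (r = 0.96), Vps13c (r = 0.96), Tet2 (r = 0.95), Lipa (r = 0.95) and Dennd4a (r = 0.94), the last but one of which encodes the lysosomal acid lipase. In tumors Ctss was most like Spred1 (r = 0.97), Fcer1g (r = 0.96), Lst1 (r = 0.95), Luc7l2 (r = 0.94) and 4930431P03Rik (r = 0.94), of which Fcer1g and Lst1 are known from myeloid cells, and Ctsb was most like Hsdl2 (r = 0.98), Rarres2 (r = 0.97), Sncg (r = 0.97), Pck1 (r = 0.97) and Rps4l (r = 0.97). In tumors Ctsw was most like Ptprcap (r = 0.98), Mageh1 (r = 0.97), Tsr2 (r = 0.93), Adi1 (r = 0.90) and Golga5 (r = 0.89). Of these, Ptprcap is a lymphocyte gene. With the mean log2 CPM of the 11 T and NK cell markers Ctsw had r = 0.29 (exact permutation p = 0.55). Spearman's rho there was -0.17 (exact permutation p = 0.70). The picks came from 12941 genes in tumors and 11337 in cells, those with a mean log2 CPM over 1, and with so many genes high values are to be had in any case.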

How the data were processed

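RNA sequencing of 8 tumors and 12 cell samples was used. The authors trimmed reads with Trimmomatic, aligned them with STAR to GRCm38 and deposited whole-number counts per gene. Tumor counts were read regardless of strand and cell counts on the strand opposite to the gene, which held 97.1 to 97.3% of stranded cell counts. The annotation release behind the counts is not given in the sources used here. Symbols and lengths came from GENCODE M21, in which 45143 of 45706 identifiers were found. Reads that matched no gene, several genes or several places were left out of library sizes.

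Tests used edgeR 4.0.16 in R 4.3.3 (quasi-likelihood, two-sided, TMM, filterByExpr, Benjamini-Hochberg over all genes tested), with tumors and cells fitted apart and all 12 cell samples in 1 fit. Genes were called at an adjusted p under 0.05, and in tumors also at an unadjusted p under 0.1. Alternatives were DESeq2 1.42.0, limma-voom (limma 3.58.1), other size factors and filters, covariates, the replicate block and leaving out each sample. The 6 tumors with low muscle markers and the principal transcript length were added after seeing the data. The script was tested on simulated counts. Marker scores were mean log2 CPM (prior count 2), and their permutation tests were exact and two-sided.

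Members and lists were chosen with earlier results of these data known. All members and Ctsd were named, plus up to 3 genes per list with the largest log2 FC among those past the threshold without overlap of groups, and the 5 genes of highest Pearson r per member. No entry among the start regions was found here for Ctsb, Ctsh and Ctsw. The study describes the replicates of cells as independent experiments. No 2 replicates agreed within sampling noise.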

Additional observations from a re-analysis of the deposited data

Results flagged for a closer look

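Ctsh in MMTV-cre;Ctsd-/- tumors held a tumor far from the others. Tumor 1 had 908 CPM against 405, 399.9 and 302 CPM, and its gap to the nearest was 0.83 of the range of the group, just past the limit of Dixon's test for a group of this size. Chance gives about 1 such result in every 20 groups, and 22 groups were looked at. That tumor also had the highest skeletal muscle markers of its group, whose part was not tested.

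The difference between Ctsd-/- and Ctsd+/+ cells changed between 1% FCS and 1% FCS LT for 4 members by the interaction test of edgeR. The change was 3.37 for Ctsz and 1.38 for Ctso, both upward, and -1.28 for Ctsl and -1.16 for Ctsh, on the log2 scale.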

How the results depend on the processing

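Of 18 called differences of members in cells, 15 kept direction and call under every alternative run, and 0 of 308 values reversed. The 13 calls lost were all lost by leaving out 1 sample, 10 for Ctsh in the interaction, 2 for Ctsb in 1% FCS and 1 for Ctsw in Ctsd+/+ cells over time. In tumors the count of members lower at an unadjusted p under 0.1 went from 0 to 1, Ctsh, with DESeq2, limma-voom, no filter on low counts, macrophage markers as a covariate or 6 tumors without the highest muscle markers of each group, and was 0 to 1 (Ctsh or Ctsk) when a tumor was left out. In 1% FCS LT the count of members called higher was 2, 4 with library code as a covariate (Ctsf and Ctsl added), 3 (Ctsf added) with no filter, within the shared code or with the groups of the contrast alone, and 2 to 3 when a sample was left out. The count called lower there was 1, and 2 with DESeq2, limma-voom, DESeq2 size factors, no filter, library code as a covariate or the groups of the contrast alone. In Ctsd-/- cells over time the count called lower was 0, and 1 (Ctsw) with the groups of the contrast alone. In Ctsd+/+ cells over time the count called lower was 3, 4 with DESeq2, no filter, the shared code or the groups of the contrast alone (Ctsf added), and 2 to 4 when a sample was left out. The interaction count called lower was 1 to 2 when a sample was left out. Members passing adjustment with a marker list over tumors were 0 with macrophage and 1 with adipocyte markers. The causes were not tested.

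Directions reversed only for differences that were not called. With adipocyte markers as a covariate in tumors, the log2 FC of Ctsb was -0.15, of Ctss 0.12 and of Ctsw -0.26, and with the 6 tumors that of Ctso was -0.0459. Leaving out 1 tumor gave -0.15 to 0.13 for Ctsl, -0.40 to 0.0719 for Ctss, -0.61 to 0.0493 for Ctsk, -0.14 to 0.0984 for Ctsf, -0.0888 to 0.23 for Ctso and -0.0799 to 0.12 for Ctsw. In 1% FCS the log2 FC of Ctsf was -0.0189 with DESeq2, -0.19 with limma-voom, -0.0166 with DESeq2 size factors in edgeR, -0.0121 with at least 10 counts in every sample, -0.27 with library code and -0.73 within the shared code, and -0.94 to 0.37 when a sample was left out. In Ctsd-/- cells over time, Ctsl and Ctsf had -0.029 and 0.16 with limma-voom, -0.26 and 0.52 with library code, -0.14 and 0.86 within the shared code, and -0.14 to 0.22 and -0.48 to 0.83 when a sample was left out. The same gave -0.0353 to 0.33 for Ctsb there, -0.42 to 0.17 for Ctsc in Ctsd+/+ cells over time and -0.00143 to 0.76 for Ctsd in the interaction.

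Deviations of same-numbered samples had a mean correlation of 0.07 in cells, with 7 of 18 pairs over 0.1, and -0.11 in tumors, with 0 of 4. The mean over cells hides differences between pairs of groups. Between the genotypes in 1% FCS, same-numbered samples had 0.36, 0.10 and 0.30, and different-numbered ones -0.36 to 0.19. Replicate 1 of both genotypes there also shared a library code. Some pairing in 1% FCS is therefore possible, and the main fits did not pair samples. With the replicate block the count of members called lower in 1% FCS LT was 2, and the other counts were as without it. The block gave Ctsf -0.14 in 1% FCS and, in Ctsd-/- cells over time, Ctsl -0.0299 and Ctsf 0.0462. With 3 or 4 samples a group and a biological coefficient of variation of 0.429 in tumors and 0.217 in cells, small differences could be missed, in tumors above all. Counts also depend on 1 line per genotype in cells.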
